A study of Arabidopsis thaliana with 12 samples.

Results

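The transcripts described here are those of the plastid genome, measured in whole roots of Arabidopsis thaliana. The array annotation gave 69 of the 22746 probe sets tested to 1 gene of the plastid genome each, and these 69 genes, each with 1 probe set, are the members. They were grouped by the complex their products belong to. Photosystem II held 15 genes, photosystem I 5, the cytochrome b6f complex 6, the ATP synthase 6, the NADH dehydrogenase-like (NDH) complex 10, the plastid ribosome 15 and the plastid RNA polymerase 4. The large subunit of Rubisco (rbcL) stood alone, and 7 genes of other roles (accD, clpP, matK, cemA, ccsA, ycf3 and ycf4) formed the last group. The reference annotation lists 85 protein-coding plastid records, and another 8 probe sets that match 2 copies of a plastid repeat were left out by the rule.

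The 4 groups of 3 arrays were hni9 at low nitrogen, hni9 at high nitrogen, the wild type (WT) at low nitrogen and WT at high nitrogen. hni9 is a mutant of HNI9/IWS1, a nucleus-encoded factor of transcript elongation by RNA polymerase II, and the labels name neither the kind of mutation nor the accession of the plants. The hni9 titles read hni9-1, hni9-2 and hni9 for replicates 1, 2 and 3, so the spread between hni9 arrays could include a difference between alleles. Low nitrogen was 0.3 mM KNO3 and high nitrogen 10 mM NH4NO3, both held at steady state. The supplies differ in salt and in amount, and these cannot be told apart. The replicates are described as biological, without saying what was pooled, and whole roots mix many cell types, so fewer plastids, fewer genome copies and less RNA per copy cannot be told apart.

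The plastid genome is the remnant of a cyanobacterial genome and encodes core subunits of the photosynthetic complexes together with parts of its own ribosome and RNA polymerase, while most partner subunits come from the nucleus. Its genes are read by a bacterial type polymerase, whose core is plastid-encoded and which needs nucleus-encoded sigma factors, and by phage type polymerases encoded in the nucleus. In chloroplasts the photosynthesis genes depend mainly on the bacterial type enzyme, and many genes are cotranscribed and processed from long precursors. Root plastids are mostly not green, and they house nitrite reduction and much of ammonium assimilation. Plastid mRNAs mostly lack stable poly(A) tails, and the labels do not name the primer used to label the RNA.

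Intensities are the deposited linear values, which had been scaled to a common trimmed mean of 500 on every array, and a brighter probe set does not mean a more abundant transcript than that of another gene. Changes are log2 differences of intensity + 16, ± the standard error from limma, and adjusted p-values are from limma over all 22746 probe sets with n = 3 arrays per group and a threshold of 0.05. The arrays are not all alike. The array of hni9 at low nitrogen replicate 3 was the lowest of the 12 for 35 of the 69 genes, and that of WT at high nitrogen replicate 1 was the highest for 26. The 3′ to 5′ ratio of the GAPDH control probe sets, a measure of RNA quality and labelling, was 0.976 to 1.27 in hni9 at low nitrogen, 1.03 to 1.25 in hni9 at high nitrogen, 0.921 to 1.19 in WT at low nitrogen and 1.31 to 1.35 in WT at high nitrogen. The 3 WT arrays at high nitrogen therefore had the highest ratios, and the part of this in the results that rest on them was not tested. For the actin control the ratios of these 3 arrays were 5.219, 15.09 and 6.319, against 5.501 to 10.12 in the other groups. Replicate 2 thus had the highest actin ratio of the 12 arrays and replicate 1 the lowest. For the ubiquitin control the ratios of these 3 arrays were 2.298, 2.298 and 1.846, against 1.746 to 2.178 in the other groups. Replicates 1 and 2 thus had the highest ubiquitin ratios, while replicate 3 lay within the range of the other groups.

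Most plastid-encoded transcripts had their highest mean in WT roots at high nitrogen. This was so for 43 of the 69 genes, while 4 were highest in hni9 at low nitrogen, 16 in hni9 at high nitrogen and 6 in WT at low nitrogen. Over all probe sets tested the shares were 27.5% for WT at high nitrogen, 18.8% for hni9 at low nitrogen, 32.2% for hni9 at high nitrogen and 21.5% for WT at low nitrogen. For 12 of the 69 genes every WT array at high nitrogen lay above all 9 other arrays, as it did for 3.55% of all probe sets. These 12 were psbE, psbF, psbH, psbJ and psbT of photosystem II, petA and petB of the cytochrome b6f complex, rps4, rpl32 and rpl33 of the ribosome, rpoA of the polymerase and ycf3. Over the 69 genes the mean of log2(intensity + 16) was 9.54, 9.48 and 9.09 in hni9 at low nitrogen, 9.36, 9.67 and 9.37 in hni9 at high nitrogen, 9.52, 9.36 and 9.42 in WT at low nitrogen and 9.82, 9.62 and 9.82 in WT at high nitrogen. The WT arrays at high nitrogen overlapped with those of hni9 at high nitrogen on this mean and lay above all 6 arrays at low nitrogen.

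**Figure D1:**
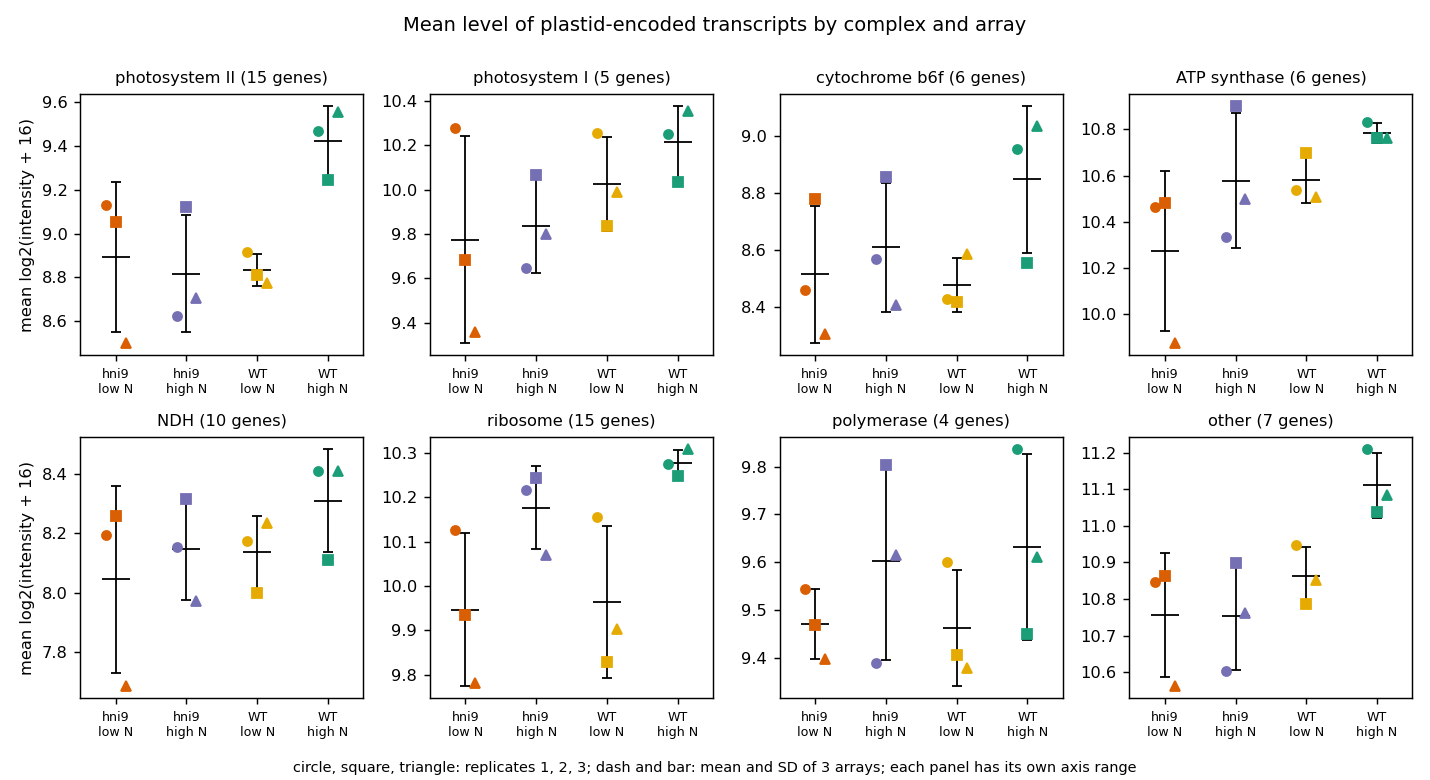
Mean of log2(intensity + 16) over the genes of each complex (vertical axis, a separate range in each panel) in each of the 12 arrays, by group (horizontal axis); points are arrays, the dash and bar are the mean and SD of 3 arrays. The photosystem II panel has the 3 WT arrays at high nitrogen, at 9.24 to 9.56, above the 9 others, which lie between 8.50 and 9.13.

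The nitrogen response of WT asks which plastid transcripts differ between the supplies in the wild type. At low nitrogen 6 of 69 genes fell and 0 rose, against 5.74% of all probe sets called in either direction and 2.9% called lower. The 6 were psbH, psbJ and psbF of photosystem II, petB of the cytochrome b6f complex, rps2 of the ribosome and the photosystem I assembly factor ycf3. The change lay below 0 for 60 of 69 genes, against 53.5% of all probe sets, with a median of -0.30 against -0.02 over all probe sets. An unadjusted p under 0.05 was found for 28 genes, against 17.6% of all probe sets. All 3 WT arrays at low nitrogen lay below all 3 at high nitrogen for 29 of 69 genes, a separation found for 13.3% of all probe sets. The count of 6 depended on single arrays and on the variance model. It was 0, 3 and 1 without WT at high nitrogen replicate 1, 2 or 3, 3 and 1 without WT at low nitrogen replicate 2 or 3, and 12 without hni9 at low nitrogen replicate 3, while it was 1 with no trend of the variance on intensity, 2 with replicates 1 and 2 alone and 16 in a fit to the WT arrays only.

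The same comparison in hni9 gave 2 of 69 genes that fell at low nitrogen and 0 that rose, against 5.1% of all probe sets called in either direction and 2.12% called lower. Both encode ribosomal proteins, rpl14 of the large and rps19 of the small subunit. At an unadjusted p under 0.05 there were 7, against 16.3% of all probe sets, and the arrays at low nitrogen lay below those at high nitrogen for 5, against 11.4%. The change lay below 0 for 47 of 69 genes, against 57.5% of all probe sets. The median change was -0.10 against -0.05 over all probe sets, and it was 0.04 without hni9 at low nitrogen replicate 3 and -0.21 without replicate 1 of that group. The count was 1 without hni9 at low nitrogen replicate 1 or 3, without hni9 at high nitrogen replicate 2, without WT at high nitrogen replicate 1, 2 or 3 or without WT at low nitrogen replicate 2. It was 0 without hni9 at high nitrogen replicate 1 or 3, with array medians equalised, with no intensity trend, with replicates 1 and 2 alone and in a fit to the hni9 arrays only.

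Between genotypes at high nitrogen 9 of 69 genes fell in hni9 and 0 rose, against 7.67% of all probe sets called in either direction and 4.33% called lower. They were psbB, psbF, psbH, psbJ and psbK of photosystem II, psaA of photosystem I, petA of the cytochrome b6f complex, ycf4 and cemA. The change lay below 0 for 51 of 69 genes, against 47% of all probe sets, and had an unadjusted p under 0.05 for 27, against 20.7%. The median was -0.25 against 0.03 over all probe sets, and all 3 hni9 arrays lay below all 3 WT arrays for 23 genes, as they did for 12.3% of all probe sets. Leaving out 1 array changed the count to 1 without WT at high nitrogen replicate 1, 3 without its replicate 3, 0 without hni9 at high nitrogen replicate 1, 16 without its replicate 2 and 1 without its replicate 3. With no intensity trend, or with replicates 1 and 2 alone, it was 0. Each of the 9 genes lost its call in 3 to 8 of the 12 fits that left out 1 array, with a highest adjusted p between 0.0664 and 0.167.

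At low nitrogen 0 of 69 genes passed between hni9 and WT in limma (6 at an unadjusted p under 0.05), against 2.06% of all probe sets called (13.4% unadjusted). The hni9 arrays lay below the WT arrays for 7 genes and above them for 1, as for 9.64% and 8.68% of all probe sets. The median was -0.02, and it was 0.13 without hni9 at low nitrogen replicate 3 and -0.14 without its replicate 1. The count was 1 without hni9 at high nitrogen replicate 2 or WT at high nitrogen replicate 3, with psbM then higher in hni9, and 1 without WT at low nitrogen replicate 3, with ndhG then higher. The difference between the genotype effects at high and at low nitrogen, the interaction, passed for 0 of 69 genes (14 at an unadjusted p under 0.05), against 0.703% of all probe sets called (10.9% unadjusted), and for psbH alone without hni9 at high nitrogen replicate 2. No gene was therefore shown to respond to the genotype differently at the supplies in the fit to all arrays. The WT arrays at high nitrogen enter both the nitrogen response of WT and the genotype comparison at high nitrogen, so the lower values in both are not independent of each other.

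**Figure D2:**
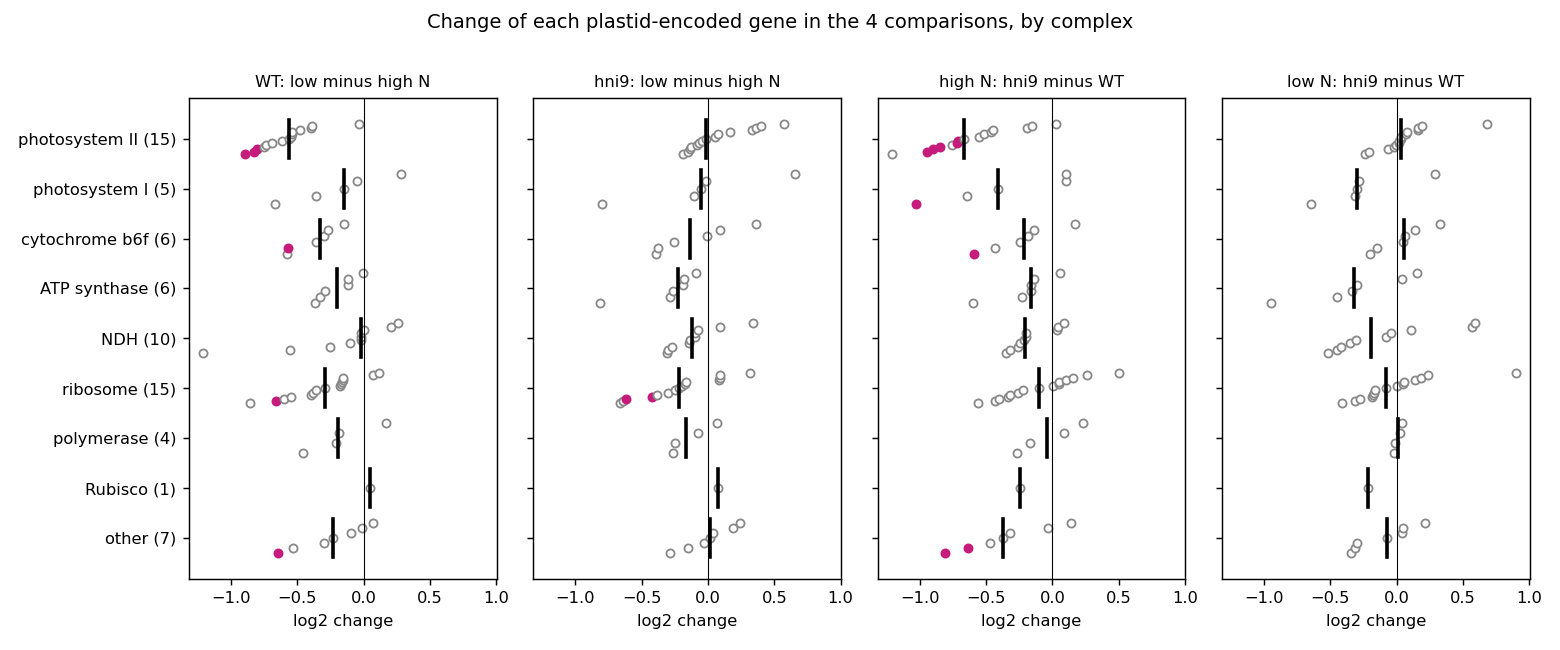
Log2 change (horizontal axis) of each of the 69 genes in 4 comparisons, by complex (vertical axis, with the number of genes); filled points passed an adjusted p of 0.05 and black bars are medians of the complex. The photosystem II medians are -0.56 for WT low minus high nitrogen and -0.67 for hni9 minus WT at high nitrogen, and lie near 0 in the other panels.

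Photosystem II, the water-splitting complex, had the largest median changes among the complexes in the nitrogen response of WT and between genotypes at high nitrogen. Its mean of log2(intensity + 16) over 15 genes was 9.13, 9.05 and 8.50 in hni9 at low nitrogen, 8.62, 9.12 and 8.71 in hni9 at high nitrogen, 8.92, 8.81 and 8.77 in WT at low nitrogen and 9.47, 9.24 and 9.56 in WT at high nitrogen. The WT arrays at high nitrogen lay above the 9 others. Several of the 15 genes share a transcription unit, as given below, so their counts are not counts of separate observations. In WT all 15 changes at low nitrogen were below 0, against 53.5% of all probe sets, and 3 passed, against 5.74% called. For 12 the arrays at low nitrogen lay below those at high nitrogen without overlap, against 13.3%. The median was -0.56, and it stayed between -0.71 and -0.55 when single arrays were left out. In hni9 8 of 15 were below 0 and 0 passed, against 57.5% and 5.1% of all probe sets, and the median was -0.02. At high nitrogen 14 of 15 were lower in hni9 than in WT and 5 passed, against 47% and 7.67% of all probe sets. The median was -0.67 (-0.79 to -0.51 without 1 array). At low nitrogen 5 of 15 were below 0, 0 passed, against 2.06% of all probe sets called, and the median was 0.03. The interaction had 14 of 15 below 0, with a median of -0.65 (-0.89 to -0.52 without 1 array). It passed for 0 of 15, against 0.703% of all probe sets, although 8 of 15 had an unadjusted p under 0.05, against 10.9%.

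psbH encodes a small phosphoprotein of the photosystem II core. Its intensity was 1181, 886 and 662 in hni9 at low nitrogen, 674, 1117 and 646 in hni9 at high nitrogen, 842, 856 and 687 in WT at low nitrogen and 1493, 1435 and 1531 in WT at high nitrogen. The WT arrays at high nitrogen were close to each other and above all others, and the other 3 groups overlapped. The change was -0.90 ± 0.20 for low against high nitrogen in WT (adjusted p = 0.0173) and -0.90 ± 0.20 for hni9 against WT at high nitrogen (adjusted p = 0.0144), while in hni9 low against high nitrogen gave 0.17 ± 0.20 (adjusted p = 0.776). psbH also had the smallest interaction p of the complex, with a difference of -1.06 ± 0.29 (adjusted p = 0.136).

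psbB encodes CP47, an inner antenna protein that binds chlorophyll, and is cotranscribed with psbT, psbH, petB and petD. Its intensity was 337, 224 and 188 in hni9 at low nitrogen, 136, 235 and 181 in hni9 at high nitrogen, 216, 259.8 and 256 in WT at low nitrogen and 425, 282 and 389.7 in WT at high nitrogen. Every hni9 array at high nitrogen lay below every WT array there, with a change of -0.94 ± 0.24 (adjusted p = 0.0259). In WT the arrays at low nitrogen also lay below those at high nitrogen, but -0.54 ± 0.24 did not pass (adjusted p = 0.251). Among the partners in that transcription unit, psbT, which encodes a small subunit, had 121, 195 and 153 in hni9 at high nitrogen, 158, 163 and 131 in WT at low nitrogen and 226, 230.1 and 313 in WT at high nitrogen. Its arrays did not overlap in either comparison, yet -0.67 for the genotypes and -0.69 for the supplies in WT did not pass (adjusted p = 0.106 and 0.111). petD, at the end of the unit, lay among the dimmest 40% of probe sets and had changes of 0.17 and -0.27 in these comparisons. psbN, which lies between psbT and psbH on the other strand, was also dim, with 11.1, 16.8 and 12.8 in hni9 and 18.4, 55.7 and 113 in WT at high nitrogen.

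The psbE, psbF, psbL and psbJ genes form another transcription unit, in which psbE and psbF encode the subunits of cytochrome b559 and psbL and psbJ encode small core proteins. psbJ had intensities of 928, 961 and 584 in hni9 at low nitrogen, 902, 944 and 731 in hni9 at high nitrogen, 789, 886 and 700.3 in WT at low nitrogen and 1753, 1277 and 1260.0 in WT at high nitrogen. psbF had 511, 573 and 358 in hni9 at low nitrogen, 499, 589 and 497 in hni9 at high nitrogen, 499, 599 and 402 in WT at low nitrogen and 1144, 716 and 817 in WT at high nitrogen. For both genes the 3 WT arrays at high nitrogen stood above the 9 others, which overlapped. psbJ had changes of -0.83 ± 0.18 in WT (adjusted p = 0.0132) and -0.72 ± 0.18 between genotypes at high nitrogen (adjusted p = 0.0258), and the same comparisons of psbF gave -0.81 ± 0.20 (adjusted p = 0.0252) and -0.72 ± 0.20 (adjusted p = 0.039). psbE and psbL ran the same way without passing, at -0.55 and -0.73 in WT and -0.56 and -0.76 between genotypes at high nitrogen (adjusted p between 0.0956 and 0.148). Averaged over genotypes, psbJ and psbF were also lower at low nitrogen, with changes of -0.46 ± 0.13 (adjusted p = 0.0373) and -0.48 ± 0.14 (adjusted p = 0.0441), and both lost this call with array medians equalised.

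psbK, which encodes a small subunit and is cotranscribed with psbI, had 1980.4, 1494 and 1056 in hni9 at low nitrogen, 1063, 1582 and 868 in hni9 at high nitrogen, 1559, 1267 and 1361 in WT at low nitrogen and 2506, 1768 and 1961 in WT at high nitrogen. The arrays of hni9 at high nitrogen were all below those of WT there, with a change of -0.85 ± 0.22 (adjusted p = 0.0314), and replicate 2 of hni9 was the highest of its group. psbI had -0.45 (adjusted p = 0.0855) and -0.39 for the supplies in WT (adjusted p = 0.169), with no overlap of arrays in either. psbA, psbD and psbC passed in no comparison. psbA, which encodes the D1 protein, had 146, 298 and 135 in hni9 and 289, 234 and 247 in WT at high nitrogen, and -0.46 ± 0.40 did not pass. psbD, which encodes the partner protein D2, had changes between -0.05 and 0.03 in the 4 comparisons, and psbC, which encodes the antenna protein CP43, had -0.48 in WT (adjusted p = 0.237) and -0.16 between genotypes at high nitrogen. psbZ, a small subunit gene, had -0.61 and -0.51, neither of which passed.

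psbM, another small subunit gene, had the highest genotype change of the complex at low nitrogen. Its intensity was 5552, 5831 and 7668 in hni9 at low nitrogen, 4361, 5957 and 4813 in hni9 at high nitrogen, 4178, 3227 and 4471 in WT at low nitrogen and 4683, 5465 and 7284 in WT at high nitrogen. All 3 hni9 arrays at low nitrogen lay above all 3 WT arrays there, but 0.68 ± 0.18 did not pass in the fit to all arrays (adjusted p = 0.0688). No other photosystem II gene separated the genotypes at low nitrogen in either direction.

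**Figure D3:**
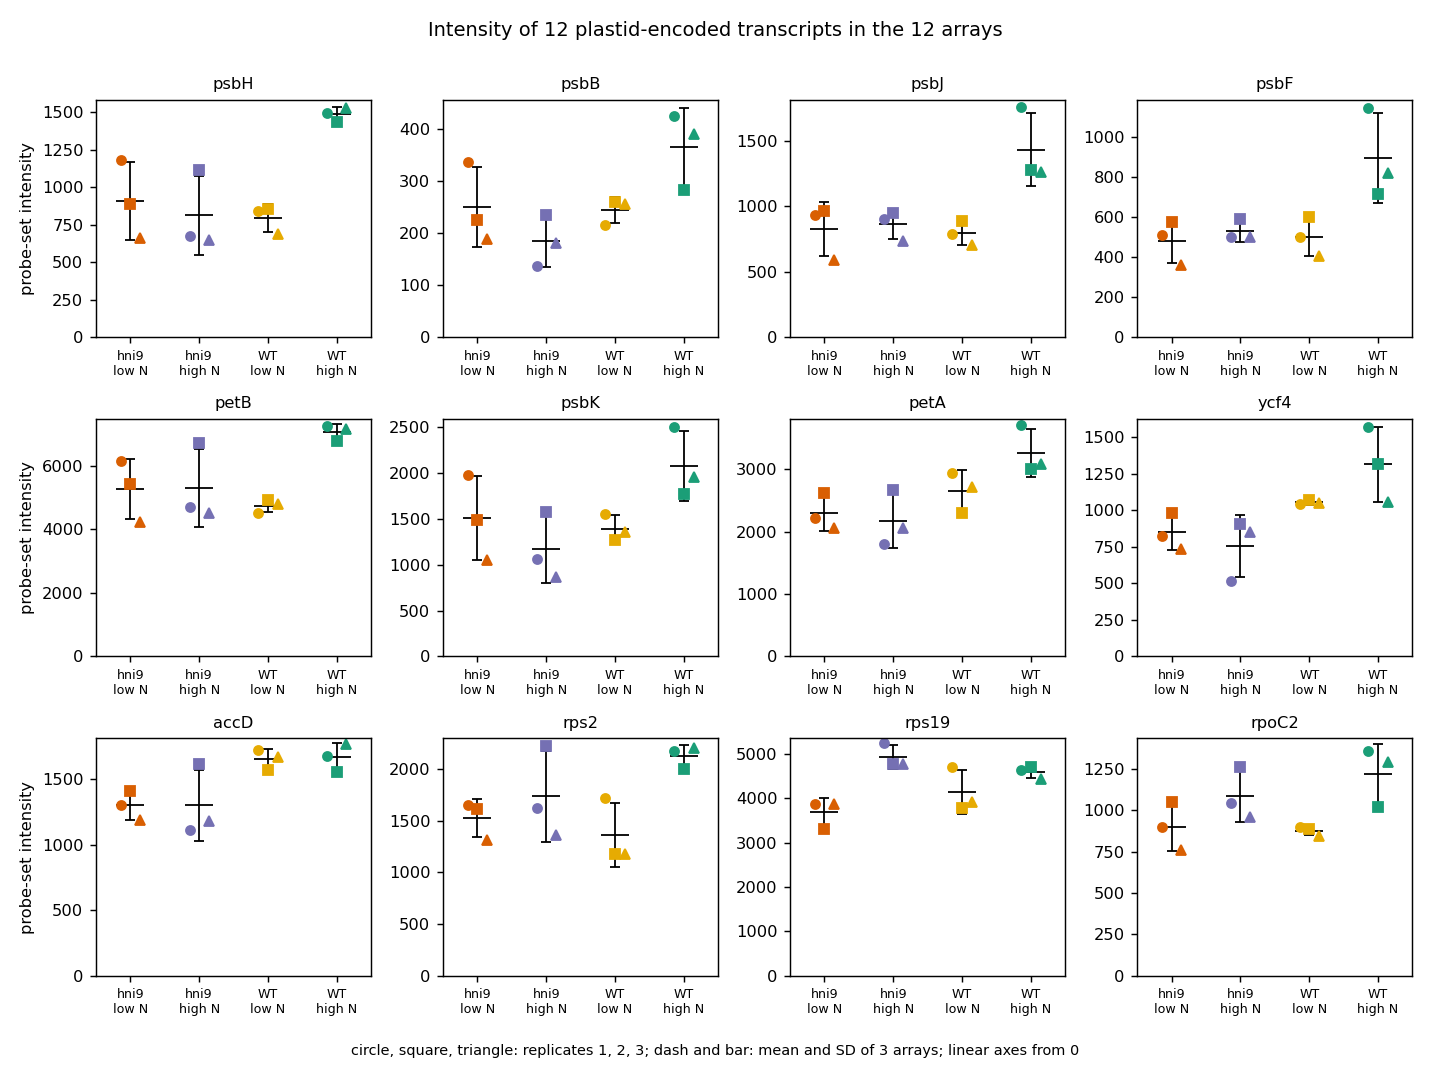
Deposited intensity (vertical axes, linear and starting at 0) of 12 plastid-encoded genes in each array, by group (horizontal axis); points are arrays, the dash and bar are the mean and SD of 3 arrays. The WT arrays at high nitrogen stand above all others for psbH, psbJ, psbF, petB and petA, while accD and ycf4 have lower means in hni9 at both supplies and rps19 has its lowest mean in hni9 at low nitrogen.

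Photosystem I, which reduces ferredoxin, was represented by 5 genes with unlike patterns. psaA, which encodes a core protein of the reaction centre, had 704, 422 and 299 in hni9 at low nitrogen, 220.5, 332 and 295 in hni9 at high nitrogen, 384, 411 and 303 in WT at low nitrogen and 717, 409 and 682 in WT at high nitrogen. The hni9 arrays at high nitrogen were all below those of WT, with a change of -1.03 ± 0.27 (adjusted p = 0.0328), and hni9 at low nitrogen replicate 1 was as high as the WT arrays at high nitrogen. The partner core gene psaB, next to psaA in the same transcription unit, had -0.64 ± 0.27 (adjusted p = 0.18), from 1803, 3412 and 1729 in hni9 against 3723, 3404 and 3214 in WT, where replicate 2 of hni9 lay within the WT range. psaI, a small subunit gene, fell in hni9 averaged over the supplies, with a change of -0.36 ± 0.10 (adjusted p = 0.043). psaJ and psaC, for a small and an iron-sulphur subunit, had 0.10 and 0.10 between genotypes at high nitrogen and passed in no comparison.

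ycf3 and ycf4 encode assembly factors of photosystem I. ycf3 had 283, 271 and 185 in hni9 at low nitrogen, 232, 239 and 235 in hni9 at high nitrogen, 223, 201 and 198 in WT at low nitrogen and 331, 322 and 343 in WT at high nitrogen. It fell in WT at low nitrogen, with a change of -0.64 ± 0.17 (adjusted p = 0.0393), and -0.47 ± 0.17 for hni9 against WT at high nitrogen did not pass (adjusted p = 0.118), although every WT array at high nitrogen was above all others. ycf4 had 826, 981 and 738 in hni9 at low nitrogen, 515, 909 and 848 in hni9 at high nitrogen, 1041, 1073 and 1048 in WT at low nitrogen and 1569.5, 1320.0 and 1058 in WT at high nitrogen. Its hni9 arrays lay below the WT arrays at both supplies, with changes of -0.81 ± 0.19 at high nitrogen (adjusted p = 0.0161) and -0.32 ± 0.19 at low nitrogen (adjusted p = 0.524), and -0.56 ± 0.13 on average (adjusted p = 0.0146).

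The cytochrome b6f complex carries electrons between the photosystems. petB, which encodes cytochrome b6, had 6136, 5425 and 4244 in hni9 at low nitrogen, 4709, 6725 and 4501 in hni9 at high nitrogen, 4528, 4915 and 4784 in WT at low nitrogen and 7257, 6791 and 7148 in WT at high nitrogen. It fell in WT at low nitrogen, with a change of -0.57 ± 0.15 (adjusted p = 0.0352; 0.0977 for -0.43 between genotypes at high nitrogen). petA, which encodes cytochrome f, had 2219, 2617 and 2057 in hni9 at low nitrogen, 1806, 2664 and 2052 in hni9 at high nitrogen, 2945, 2289.9 and 2717 in WT at low nitrogen and 3702, 2999 and 3082 in WT at high nitrogen. It fell in hni9 at high nitrogen, with a change of -0.59 ± 0.14 (adjusted p = 0.0212), while -0.30 in WT did not pass (adjusted p = 0.304). The small subunit genes petG and petL, the dim petN and petD passed in no comparison. petL had -0.57 in WT and -0.48 averaged over genotypes (adjusted p = 0.223 and 0.107). The median of the 6 genes was -0.33 for the supplies in WT (-0.59 without WT at high nitrogen replicate 2) and -0.21 between genotypes at high nitrogen (-0.46 without that array and -0.09 without WT at high nitrogen replicate 3).

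Neighbouring genes from accD to petA were among those called lower in hni9 averaged over the supplies. In plastid genome order accD, psaI, ycf4, cemA and petA follow each other with no other record between them. These 5 were among the 7 of 69 genes (10.1%) that fell in that comparison, while 0 rose. Over all probe sets 9.41% were called there and 5.01% called lower, so the share of genes called lies near the background. The remaining genes of the 7 were atpH and rps4. At low nitrogen alone 0 of the 69 passed. At high nitrogen alone the run of called neighbours was ycf4, cemA, petA and psbJ. accD encodes a subunit of acetyl-CoA carboxylase, the first enzyme of fatty acid synthesis, and the pathway is also active in plastids that are not green. It had 1307, 1411 and 1189 in hni9 at low nitrogen, 1112, 1613 and 1182 in hni9 at high nitrogen, 1725, 1573 and 1668 in WT at low nitrogen and 1677, 1558 and 1768 in WT at high nitrogen. The hni9 arrays were below WT at low nitrogen without overlap, and at high nitrogen hni9 replicate 2 reached the WT range. The averaged change of accD was -0.36 ± 0.09 (adjusted p = 0.0174), with -0.37 at high and -0.35 at low nitrogen (adjusted p = 0.0839 and 0.199).

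cemA encodes an envelope membrane protein. It had 1734, 1690.3 and 1256 in hni9 at low nitrogen, 1029, 1786 and 1213 in hni9 at high nitrogen, 1912, 1842 and 1963 in WT at low nitrogen and 2343, 1861 and 1937 in WT at high nitrogen. The hni9 arrays lay below the WT arrays at each supply, and the change was -0.63 ± 0.17 at high nitrogen (adjusted p = 0.0353), -0.30 ± 0.17 at low nitrogen (adjusted p = 0.502) and -0.47 ± 0.12 on average (adjusted p = 0.025). Averaged over the supplies, all 6 hni9 arrays lay below all 6 WT arrays for ycf4 and cemA alone among the 69 genes, a separation seen in 1.62% of all probe sets. rbcL, the record before accD, had -0.23 (adjusted p = 0.337). accD and ycf4 kept their averaged call in all 12 fits that left out 1 array, while the other 5 called genes lost theirs in 6 to 9 of them, and with no intensity trend, or with replicates 1 and 2 alone, none of the 7 passed. The count of 7 was 2 without WT at high nitrogen replicate 1, hni9 at high nitrogen replicate 1 or 3, WT at low nitrogen replicate 1 or hni9 at low nitrogen replicate 3. It was 4 without WT at high nitrogen replicate 2, 3 without WT at low nitrogen replicate 3, 14 without hni9 at high nitrogen replicate 2 and 11 without hni9 at low nitrogen replicate 1.

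**Figure D4:**
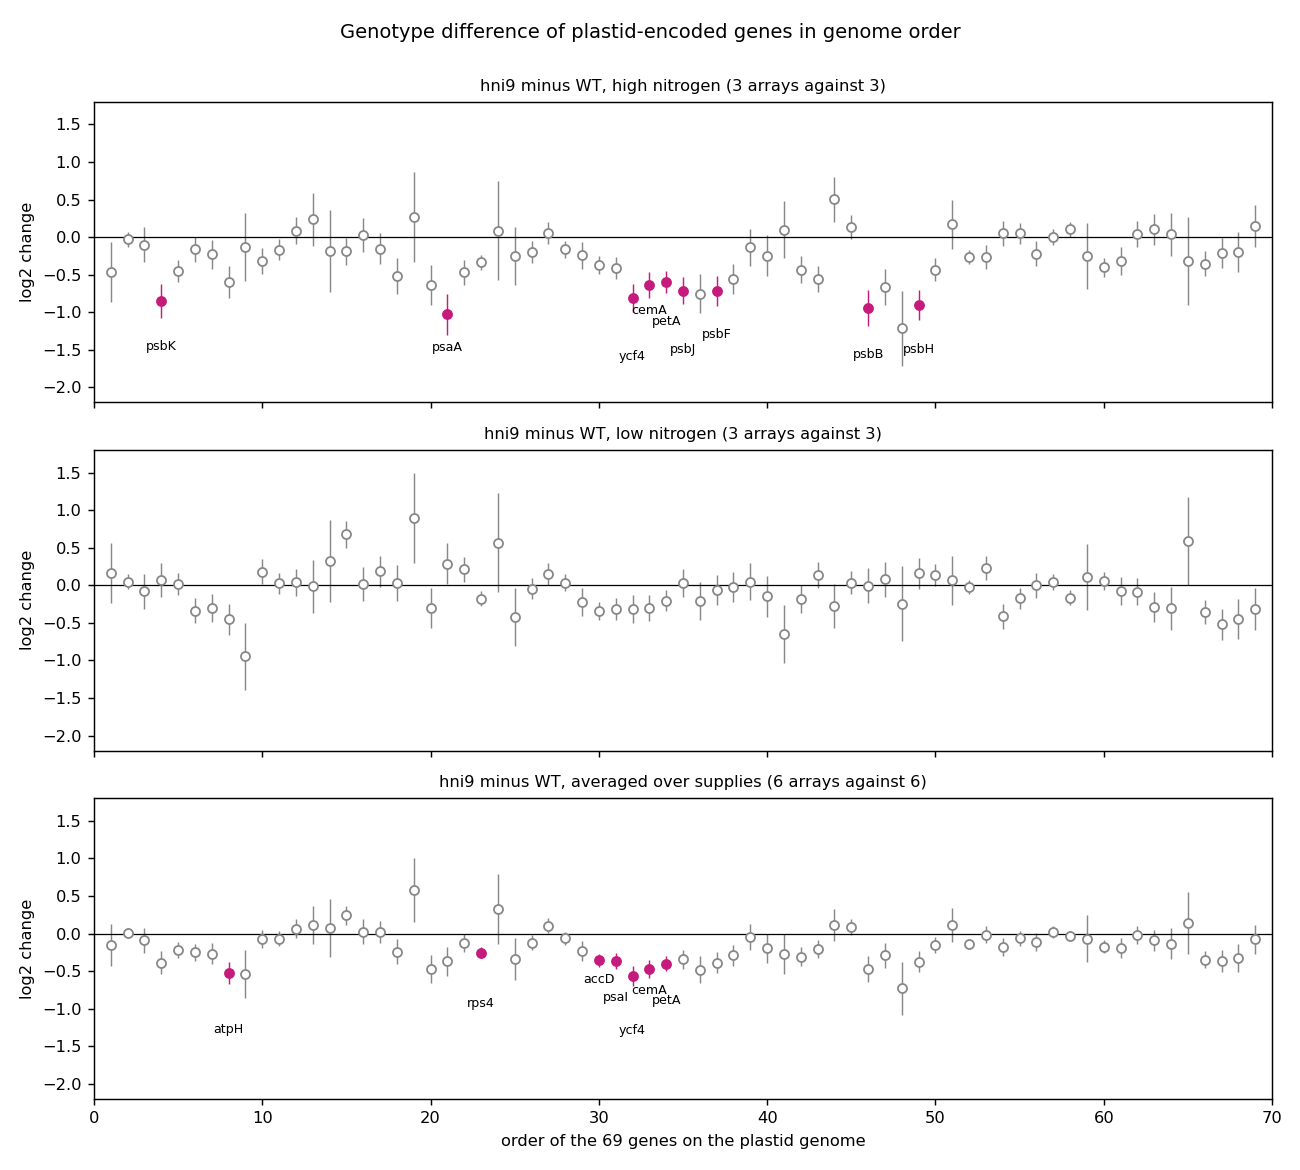
Log2 change of hni9 minus WT ± standard error (vertical axis) of the 69 genes in their order along the plastid genome (horizontal axis, rank only), at high nitrogen, at low nitrogen and averaged; filled and named points passed an adjusted p of 0.05. The 5 neighbours accD to petA stand together in the averaged panel, with changes between -0.56 and -0.36, and no point is filled at low nitrogen.

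The ATP synthase makes ATP from the proton gradient. Of its 6 genes 1 passed in any comparison. This was atpH, which encodes the membrane rotor subunit, with 457, 449 and 349.7 in hni9 at low nitrogen, 462, 654 and 351 in hni9 at high nitrogen, 534, 712 and 499.8 in WT at low nitrogen and 917, 677 and 620.4 in WT at high nitrogen. It fell in hni9 averaged over the supplies, with a change of -0.53 ± 0.15 (adjusted p = 0.0382), and its hni9 arrays at high nitrogen overlapped with those of WT through replicate 2. Over all probe sets 9.41% were called in that averaged comparison, so a count of 1 among 6 lies near the background. The alpha and beta subunit genes atpA and atpB had -0.16 and -0.16 between genotypes at high nitrogen and -0.12 and -0.29 in WT. atpE, which encodes the epsilon subunit, had -0.37 in WT and -0.32 averaged over genotypes (adjusted p = 0.0764). atpF and the dim atpI, for further membrane subunits, passed in no comparison.

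None of the 10 NDH genes, whose complex takes part in cyclic electron flow around photosystem I, passed in any comparison in limma, while at an unadjusted p under 0.05 there were 0 in WT, 0 in hni9, 1 between genotypes at high and 2 at low nitrogen. Over all probe sets 17.6%, 16.3%, 20.7% and 13.4% had such a p in these comparisons and 5.74%, 5.1%, 7.67% and 2.06% were called, so among 10 genes a count of 0 called lies near the background. Their median was -0.02 for the supplies in WT. ndhI, among the brightest 3 of this group, had 3759, 4399 and 2593 in hni9 at low nitrogen, 3325, 4471 and 3569 in hni9 at high nitrogen, 4735, 4251 and 4435 in WT at low nitrogen and 5116, 4316 and 5011 in WT at high nitrogen, and -0.35 ± 0.11 averaged over the supplies did not pass (adjusted p = 0.0707). ndhC and ndhD, the others of these 3, had -0.20 and 0.04 between genotypes at high nitrogen. ndhA had -0.52 at low nitrogen (adjusted p = 0.25) with hni9 arrays below WT arrays. The 4 genes ndhF, ndhG, ndhJ and ndhK were among the dimmest 40% of probe sets, and ndhG ranged from 5.15 to 141 within WT at low nitrogen. rbcL had 409.7, 585 and 488 in hni9 at low nitrogen, 341, 600.0 and 482 in hni9 at high nitrogen, 620.3, 523 and 576 in WT at low nitrogen and 622, 465 and 579 in WT at high nitrogen. Its groups overlapped, and its changes lay between -0.24 and 0.08 in the 4 comparisons, with adjusted p of 0.515 or more.

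The plastid ribosome had medians below 0 for low against high nitrogen in both genotypes, and so had photosystem II, as given above. In WT and hni9 these medians were -0.20 and -0.23 for the ATP synthase and -0.20 and -0.16 for the polymerase. They were -0.33 and -0.13 for the cytochrome b6f complex, -0.15 and -0.05 for photosystem I and -0.02 and -0.12 for the NDH complex. For the 7 genes of other roles they were -0.23 and 0.02, and the single gene rbcL had changes of 0.05 and 0.08. Over 15 genes the mean of log2(intensity + 16) was 10.13, 9.93 and 9.78 in hni9 at low nitrogen, 10.22, 10.24 and 10.07 in hni9 at high nitrogen, 10.16, 9.83 and 9.90 in WT at low nitrogen and 10.28, 10.25 and 10.31 in WT at high nitrogen. In WT the arrays at low nitrogen were all below those at high nitrogen, and in hni9 replicate 1 at low nitrogen overlapped. The median change for low against high nitrogen was -0.29 in WT and -0.22 in hni9. Below 0 lay 13 and 11 of 15 genes, against 53.5% and 57.5% of all probe sets. Between genotypes the median was -0.10 at high and -0.08 at low nitrogen, with 0 of 15 past the threshold at either supply in limma (4 and 1 at an unadjusted p under 0.05). Over all probe sets 7.67% and 2.06% were called and 20.7% and 13.4% had such a p, so these counts lie near the background. The genotype median at low nitrogen was 0.13 without hni9 at low nitrogen replicate 3.

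Averaged over genotypes 7 of 69 genes fell at low nitrogen and 0 rose, against 8.95% of all probe sets called and 4.34% called lower, and 4 of the 7 were ribosomal: rps2, rps4, rpl22 and rps19. rps19, with the smallest adjusted p of the 7, had 3873, 3309 and 3864 in hni9 at low nitrogen, 5250.1, 4769 and 4767 in hni9 at high nitrogen, 4709, 3784 and 3923 in WT at low nitrogen and 4641, 4699.8 and 4434 in WT at high nitrogen. In hni9 the arrays at low nitrogen were all below those at high nitrogen, and the change was -0.42 ± 0.10 (adjusted p = 0.0243), against -0.16 ± 0.10 in WT (adjusted p = 0.48) and -0.29 ± 0.07 on average (adjusted p = 0.0179). Its interaction was 0.27 (adjusted p = 0.54), so a difference between the genotypes was not shown. rpl14 had 745, 895 and 571 in hni9 at low nitrogen, 1058, 1175 and 1131 in hni9 at high nitrogen, 1205, 1007 and 756 in WT at low nitrogen and 1153, 1139.6 and 968 in WT at high nitrogen. It fell in hni9, with a change of -0.62 ± 0.17 (adjusted p = 0.0468), with -0.15 in WT, and lost its call in 9 of the 12 fits that left out 1 array.

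rps2 had 1656, 1610.3 and 1311 in hni9 at low nitrogen, 1628, 2223 and 1361 in hni9 at high nitrogen, 1716, 1181 and 1177 in WT at low nitrogen and 2171, 1997 and 2206 in WT at high nitrogen. In WT it fell, with a change of -0.66 ± 0.17 (adjusted p = 0.0341), and in hni9 -0.16 did not pass. rps4 had 2052, 2149 and 2117 in hni9 at low nitrogen, 2069.9, 2789 and 2447 in hni9 at high nitrogen, 2489.8, 2175 and 2508 in WT at low nitrogen and 3102, 2892 and 3189 in WT at high nitrogen. The WT arrays at high nitrogen were above all others, and rps4 was the only gene that passed both averaged comparisons, at -0.28 ± 0.07 for the supplies (adjusted p = 0.027) and -0.26 ± 0.07 for the genotypes (adjusted p = 0.039). rpl22 fell on average over genotypes, with a change of -0.27 ± 0.08 (adjusted p = 0.0432) and had 0.00 between genotypes at high nitrogen. rpl32 and rps18 had -0.41 and -0.56 between genotypes at high nitrogen and -0.38 and -0.60 in WT, none of which passed (adjusted p between 0.0547 and 0.0941). rps3, among the brightest of the group, had -0.39 and -0.17 for the supplies in WT and hni9. The other 7 ribosomal genes, rpl16, rpl20, rpl33, rpl36, rps14, rps15 and rps16, passed in no comparison, and rpl20 had the highest change at high nitrogen, 0.50 ± 0.30 (adjusted p = 0.375). The count of 7 was 1 without WT at high nitrogen replicate 1, 2 without its replicate 3, WT at low nitrogen replicate 2 or hni9 at low nitrogen replicate 3, 3 without WT at low nitrogen replicate 3 or hni9 at high nitrogen replicate 1 or 2, and 4 without hni9 at high nitrogen replicate 3. It was 1 with array medians equalised or with replicates 1 and 2 alone, and 0 with no intensity trend.

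The polymerase genes encode the core of the bacterial type enzyme. rpoC2, whose neighbour on the genome is rps2, had 898, 1050.0 and 758 in hni9 at low nitrogen, 1043, 1259.8 and 958 in hni9 at high nitrogen, 899.6, 886 and 847 in WT at low nitrogen and 1356, 1018 and 1293 in WT at high nitrogen. It fell at low nitrogen averaged over genotypes, with a change of -0.36 ± 0.10 (adjusted p = 0.0284), with -0.46 in WT and -0.27 in hni9 (adjusted p = 0.0677 and 0.365). rpoA had -0.27 between genotypes at high nitrogen (adjusted p = 0.108), with WT at high nitrogen above all other arrays. rpoC1 and the dim rpoB passed in no comparison, with 0.08 and 0.23 at high nitrogen. Of the remaining genes, matK, which encodes an intron maturase, had 8763, 7635 and 7982 in hni9 at low and 9302, 8786 and 9017 in hni9 at high nitrogen, and 8531, 7129.6 and 7913 in WT at low and 9622, 9017 and 9032 in WT at high nitrogen. The arrays at low nitrogen lay below those at high nitrogen over both genotypes, for matK alone among the 69 genes and for 1.72% of all probe sets, but -0.19 ± 0.07 did not pass (adjusted p = 0.106). clpP, which encodes a protease subunit, had changes between -0.03 and 0.14 in the 4 comparisons, and ccsA, a factor of c-type cytochrome assembly, had -0.53 in WT and -0.41 on average (adjusted p = 0.123 and 0.0689).

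Nucleus-encoded photosynthesis genes were examined beside them. Of 56 listed, 10 carried a name in the annotation, among them RCA, PRK and SBPASE, which act in carbon fixation and not in the complexes above. None passed in any of the 7 comparisons in limma, in which 0.703% to 9.41% of all probe sets were called. At an unadjusted p under 0.05 there were 5 between genotypes at high nitrogen, against 20.7% of all probe sets. There were 0 in each nitrogen response, against 17.6% in WT and 16.3% in hni9. At high nitrogen all 10 were lower in hni9 than in WT with a median of -0.97, against 47% and 0.03 over all probe sets. For 6 the hni9 arrays lay below the WT arrays without overlap, as they did for 12.3% of all probe sets. PSAN, a photosystem I subunit gene, had 77.2, 95.4 and 17.9 in hni9 and 217, 144 and 156 in WT, a change of -1.40 ± 0.45 (adjusted p = 0.0751). LHCB4.1, which encodes a light-harvesting protein, had 164, 242 and 129 in hni9 and 510.0, 488 and 400.4 in WT, a change of -1.34 ± 0.60 (adjusted p = 0.216). The median of the 10 was 0.34 for low against high nitrogen in hni9, -0.27 in WT and -0.23 between genotypes at low nitrogen. The array of hni9 at low nitrogen replicate 1 was the highest of the 12 for 9 of the 10, with a mean of log2(intensity + 16) of 8.96, against 6.97 and 6.57 in replicates 2 and 3.

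**Figure D5:**
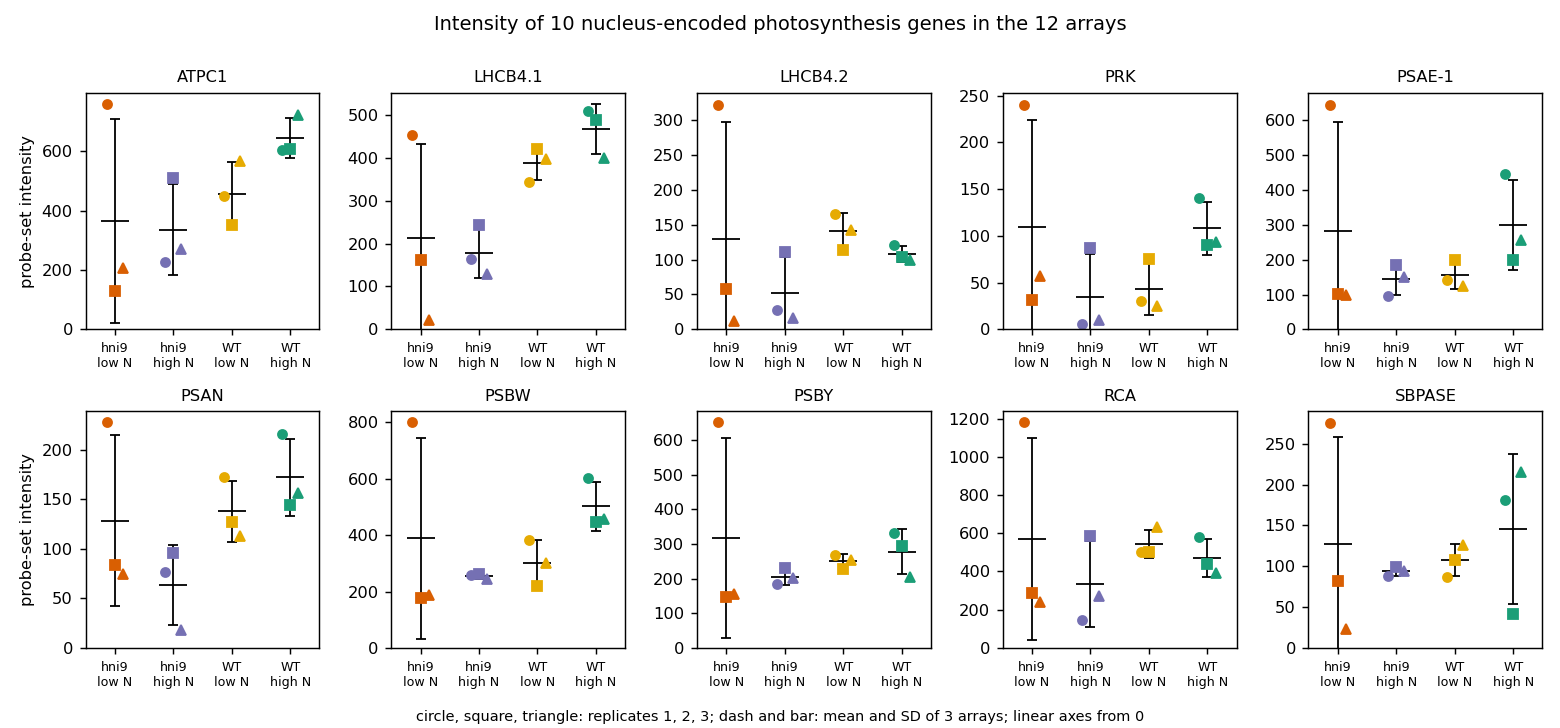
Deposited intensity (vertical axes, linear and starting at 0, which hides error bars below 0) of the 10 nucleus-encoded photosynthesis genes in each array, by group (horizontal axis); points are arrays, the dash and bar are the mean and SD of 3 arrays. Replicate 1 of hni9 at low nitrogen is the highest array for 9 of the 10 genes.

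Green tissue in the samples was checked with 22 fixed markers, of which LHCB4.1, RCA, PRK and SBPASE carried a name, and 0 of the 4 were at 0. All 4 are also among the 10 nucleus-encoded genes above, so their values are not a separate line of evidence. Their summed intensity was 339.8 to 2149 in hni9 at low nitrogen, 401 to 1013 in hni9 at high nitrogen, 963 to 1179.6 in WT at low nitrogen and 1059.55 to 1415 in WT at high nitrogen. All 4 were lower in hni9 than in WT at high nitrogen, with a median of -1.01, and 0 passed. The summed level was thus below WT in every hni9 array at high nitrogen, as the photosystem II mean was, and the part of greening or of shoot material in the plastid-encoded differences was not tested. None of 9 root markers carried a name, so the labelled tissue was not checked against them.

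The machinery that reads and translates the plastid genome was sparsely covered. Of 9 sigma factors and phage type polymerases RPOTmp, a polymerase of plastids and mitochondria, carried a name. It had 119, 148 and 98.8 in hni9 at low nitrogen, 81.2, 119 and 173 in hni9 at high nitrogen, 93.6, 101 and 96.8 in WT at low nitrogen and 31.4, 31.5 and 99.9 in WT at high nitrogen. Unlike the photosystem II genes it was lowest in WT at high nitrogen, with 1.08 ± 0.36 for hni9 against WT there (adjusted p = 0.0907). Of 28 nucleus-encoded plastid ribosomal proteins 6 carried a name and 1, RPL29, passed. It rose in hni9 averaged over the supplies, with a change of 0.65 ± 0.17 (adjusted p = 0.0258), where 9.41% of all probe sets were called. Of the 6, 3 lay below 0 and 3 above in that comparison, with a median of -0.04. None of the 13 polymerase-associated proteins or of the 7 plastid nitrogen assimilation genes carried a name.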

How the data were processed

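Total RNA of roots was hybridised to 12 one-colour Affymetrix arrays, labelled with biotin per the labels' protocols. The deposited intensity values are linear, and on each array their mean without the highest and lowest 2% is 500, as read from the values, so the authors had scaled them. No source used here names the software behind them. The median intensity of an array was 199 to 221, and 10.8% to 15.0% of values lay under 16. After 64 control probe sets were left out, 22746 were transformed as log2(intensity + 16) and fitted with 1 mean per group in limma 3.58.1 (R 4.3.3), with contrasts between groups and empirical Bayes moderation of a variance that follows intensity, and Benjamini-Hochberg adjustment over all of them at 0.05. The number of arrays limits the precision. Genes were named through the platform annotation (1 gene for 13513 probe sets, several for 503, 8730 not listed) and the RefSeq annotation of the TAIR10.1 assembly, which also gave plastid gene order. The text names every member past the threshold, the brightest 3 of each complex, the smallest p of each complex and comparison, and the leading genes of each list, and gives the remaining members in brief. The code of the fit was tested on simulated data with noise independent between arrays, which does not measure how far the calls above hold. The members and lists were chosen with earlier results of these data known, so no test over a list was made.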

Additional observations from a re-analysis of the deposited data

How the results depend on the processing

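The 3 arrays per group limit every count above, and probe sets near background (10 of the 69 members lie among the dimmest 40%) carry little. The median of the 69 genes moved by less than the spread between arrays under all 144 alternatives run. That spread, a pooled SD of 0.17 within groups, is larger than some of the medians. Without 1 array the median ran from -0.21 to 0.04 for the nitrogen response of hni9 and from -0.14 to 0.13 between genotypes at low nitrogen. It stayed below 0 in the other comparisons, among them the interaction, at -0.31 to -0.08. Counts of genes past the threshold moved more. Leaving out 1 array gave 0 to 12 genes for the nitrogen response of WT, 0 to 2 for that of hni9, 0 to 16 between genotypes at high nitrogen, 0 to 1 at low nitrogen, 0 to 1 for the interaction, 1 to 7 for the averaged nitrogen effect and 2 to 14 for the averaged genotype effect. No intensity trend gave 1 and 0 for the nitrogen responses of WT and hni9, 0 between genotypes at high nitrogen and 0 for both averaged effects. Replicates 1 and 2 alone gave 2, 0 and 0 for these comparisons, 1 for the averaged nitrogen effect and 0 for the averaged genotype effect. A fit to the groups compared gave 16 in WT and 0 in hni9, equalised array medians gave 0 in hni9 and 1 for the averaged nitrogen effect, and adding 64 in place of 16 gave 1 in hni9. Without the dimmest 40% of probe sets there were 12 for the averaged nitrogen effect and 1 between genotypes at low nitrogen. With the replicate number as a block there were 10 in WT, 12 for the averaged nitrogen effect and 1 between genotypes at low nitrogen. The labels do not say that a number marks a shared culture or day. Of 12 same-number correlations of deviations over all probe sets (0.0227 to 0.150) 5 were over 0.1, among them all 4 between replicate 3 arrays. In 21 of 24 comparisons over all probe sets an array was closest to its own number. Over the 69 genes alone the same-number correlations fell on both sides of 0. They ran from -0.35, between replicate 3 of hni9 and WT at high nitrogen, to 0.27, between replicate 3 of both at low nitrogen. The 4 replicate 3 arrays were registered in the repository in a separate run from the other 8, and the labels name no batch. Signs of single genes were followed for the called changes and the smallest p of each complex and comparison, not for every change printed above. Among those followed, 12 values turned sign when 1 array was left out, all uncalled changes near 0, of rbcL or rpoC1. Their ranges were -0.0672 to 0.136 for the supplies in WT, -0.133 to 0.259 for those in hni9, -0.208 to 0.185 for the interaction and -0.0409 to 0.155 for the averaged nitrogen effect, all of rbcL, and -0.107 to 0.206 for rpoC1 between genotypes at low nitrogen. The cause of the moved counts was not tested. Averaging a gene's probe sets and leaving out probe sets with an s or x suffix were not run, since each member has 1 probe set and 0 carry such a suffix.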

Other observations

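The mitochondrion-encoded transcripts, the other organelle genome on the array, gave 23 probe sets of 16 genes. None passed in any of the 7 comparisons in limma, in which 0.703% to 9.41% of all probe sets were called. At most 1 of the 23 had an unadjusted p under 0.05 in each. Over all probe sets 10.9% to 20.7% had such a p in the 4 comparisons of single groups and the interaction, so these counts lie below the background. Some of these probe sets are near the floor, such as that of nad2, at 1.76 to 42.0 over the 12 arrays. Their median change was 0.11 for low against high nitrogen in WT and 0.01 for hni9 against WT at high nitrogen, where the plastid-encoded medians were -0.30 and -0.25. For low against high nitrogen in hni9 and for hni9 against WT at low nitrogen the mitochondrial medians were -0.07 and -0.20. The cytochrome oxidase gene cox2 had the smallest adjusted p, 0.0568, for low against high nitrogen averaged over genotypes, with a change of 0.79 ± 0.24. nad4, which encodes a subunit of respiratory complex I, had 0.83 ± 0.26 for hni9 against WT at high nitrogen (adjusted p = 0.0737), with intensities of 2074, 2597 and 1191.5 in hni9 against 982, 1167 and 984 in WT. The arrays of these groups did not overlap, and hni9 lay above WT in this way for 3071 of the 22746 probe sets tested. The test of a difference between the organelles was not made.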
